A study of Rattus norvegicus with 16 samples.

Results

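The genes Plek, Sgk2, Litaf, Hmox2, Fga and Calml4 were followed in rat pancreatic islets that had received a PPARγ adenovirus, with and without an added PPARγ agonist. They were measured by 7 probe sets of 15923 on the array, 2 of them for Fga, and are 6 of 10411 genes that the array names singly. They had been chosen from the same table because they stood out between PPARγ virus and null virus in vehicle, that is, without added ligand. Plek and Sgk2 had passed the adjusted threshold of 0.05 there, while the others were among the next genes by p. Their ranks by p among 10078 tested probe sets were 2 for Plek, 4 for Sgk2, 8 for Litaf, 10 for Hmox2, 11 for the Fga probe set ending in _at alone and 16 for Calml4. The other Fga probe set, ending in _a_at, ranked 179. Values of that contrast are therefore given as a description, with no test.

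Islets, which are labelled only as rat pancreatic islets, were exposed to a null adenovirus or to one encoding PPARγ at 50 viral particles per cell for 32 h. They were then kept for 16 h in vehicle (0.004% DMSO) or in the agonist GW347845 at 200 nM, called compound here. All groups thus carried an adenovirus, and none was uninfected. The labels give neither the strain, sex or age of the rats nor whether replicates came from separate islet preparations, so p-values measure the spread between these samples, which may be technical. Of 16 columns, 2 held identical values under both null virus labels of replicate 2 and were left out. That left 3 arrays in each null virus group and 4 in each PPARγ virus group. The insulin gene Ins1 read 4627 to 7093 intensity across the 14 arrays, so the beta cell hormone gene was bright in each. Pparg read 25.6 to 51.4 in the 6 null virus arrays and 4593 to 6199 in the 8 PPARγ virus arrays, so every array matched its virus label. Glucagon (Gcg) was uneven among PPARγ virus arrays: it read 3606 to 4192 in replicates 1 and 3 and 181 to 1231 in replicates 2 and 4. It read 2621 to 3423 in the 6 null virus arrays used. In the array left out for its double null virus label it read 1043, so low Gcg was not confined to the PPARγ virus. The number of arrays limits the precision.

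PPARγ is a nuclear receptor that binds DNA as a partner of RXR, at repeats of the hexamer AGGTCA with a single base between them (the DR1 element), and recruits coactivators when a ligand is bound. It is known above all from fat cells, where it turns on genes of lipid uptake and storage. In islets it is known at much lower levels than in fat. The 6 genes come from separate pathways. Plek encodes pleckstrin, which protein kinase C phosphorylates in platelets and white blood cells. Sgk2 encodes a serine/threonine kinase of the SGK family, relatives of AKT. Litaf encodes a membrane protein of late endosomes and lysosomes, Hmox2 the constitutive haem oxygenase, Fga the alpha chain of fibrinogen and Calml4 a calmodulin-like protein.

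Promoter sequences are shown to let the members be compared outside the array. RefSeq promoters of build GRCr8 were matched for 4 of the 6 genes, as 6 start sites. The 250 bases before a start were searched on both strands for the hexamer AGGTCA, which reads TGACCT on the other strand, and for the DR1 element, which is that hexamer repeated in the same direction after any single base, so that each DR1 element also holds the hexamer. No DR1 element was in the 6 windows, and 0.0508% of 33469 windows of this length held one. Only exact matches were sought, and at so low a share their absence from 6 windows says nothing about the members. A hexamer lay in 1 of the 6 windows, and in 14.1% of all windows. That window belonged to Hmox2, where the match began at base -41 from the start. GC content of the windows printed ranged from 45.2% in Fga to 70.0% in Litaf, with 45.6% in Hmox2 and 58.0% in Calml4. Capitals mark the hexamer:
Fga chr2:170671919-170672168 (plus strand): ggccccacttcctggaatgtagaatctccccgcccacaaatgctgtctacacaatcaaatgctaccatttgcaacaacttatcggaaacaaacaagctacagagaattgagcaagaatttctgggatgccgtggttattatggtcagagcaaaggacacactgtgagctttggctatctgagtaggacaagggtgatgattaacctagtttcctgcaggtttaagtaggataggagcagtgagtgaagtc
Litaf chr10:5163008-5163257 (plus strand): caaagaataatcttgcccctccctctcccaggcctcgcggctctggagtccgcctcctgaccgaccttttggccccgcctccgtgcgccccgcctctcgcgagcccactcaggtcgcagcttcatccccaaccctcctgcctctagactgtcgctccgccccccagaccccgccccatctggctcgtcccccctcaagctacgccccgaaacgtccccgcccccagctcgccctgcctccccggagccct
Hmox2 chr10:11318801-11319050 (minus strand): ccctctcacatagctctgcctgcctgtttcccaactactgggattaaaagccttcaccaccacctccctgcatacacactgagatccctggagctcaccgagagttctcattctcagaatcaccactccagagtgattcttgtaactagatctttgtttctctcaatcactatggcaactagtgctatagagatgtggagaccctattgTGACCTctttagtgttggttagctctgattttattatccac
Calml4 chr8:72218636-72218885 (plus strand): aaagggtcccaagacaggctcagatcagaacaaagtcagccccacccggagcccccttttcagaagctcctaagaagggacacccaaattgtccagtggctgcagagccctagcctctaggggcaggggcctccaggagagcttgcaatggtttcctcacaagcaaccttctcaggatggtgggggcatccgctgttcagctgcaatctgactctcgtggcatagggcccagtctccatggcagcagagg

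The probe sets read as follows in each array. Plek in null virus vehicle read 7.5, 5.9 and 6.1 in replicates 1, 3 and 4, and in null virus compound 6.6, 5.6 and 7.4. With the PPARγ virus it read 128.8, 34.7, 58.8 and 65.0 in vehicle (replicates 1 to 4) and 178.4, 112.4, 178.8 and 163.7 in compound. All null virus arrays lay far under 39.3, the intensity used as the lower limit for testing, and the null groups overlapped. PPARγ virus arrays were all higher, with replicate 2 the lowest in both treatments, and their vehicle and compound values overlapped.

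Sgk2 read 24.2, 26.2 and 27.4 in null virus vehicle and 27.6, 23.1 and 19.6 in null virus compound. It read 51.4, 57.3, 68.8 and 50.7 in PPARγ virus vehicle and 82.4, 82.3, 83.5 and 70.1 in PPARγ virus compound. The null groups overlapped, and the 3 levels null, PPARγ vehicle and PPARγ compound did not, although the last pair was separated only by 68.8 against 70.1. Litaf read 968.7, 1033 and 910.8 in null virus vehicle and 924.9, 682.0 and 923.8 in null virus compound. With the PPARγ virus it read 1624, 1389, 1733 and 1428 in vehicle and 1822, 1472, 1710 and 1556 in compound. Its treatments overlapped within each virus, while the viruses did not.

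Hmox2 read 81.9, 59.4 and 69.1 in null virus vehicle and 82.6, 76.6 and 71.2 in null virus compound. It read 121.0, 104.8, 106.0 and 116.5 in PPARγ virus vehicle and 137.4, 111.6, 123.0 and 134.4 in PPARγ virus compound. The treatments again overlapped within each virus, and the viruses were apart. Calml4 went the other way, with 207.1, 222.4 and 201.4 in null virus vehicle and 233.9, 254.5 and 243.3 in null virus compound. With the PPARγ virus it read 111.1, 115.1, 170.3 and 108.9 in vehicle and 105.3, 92.8, 132.6 and 108.1 in compound. It was the only member of the 6 whose null virus treatments did not overlap in the arrays used. The array left out for its double null virus label read 195.7, and the treatments would overlap if it belonged to compound.

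Fga, by the _at probe set, read 29.3, 25.1 and 22.7 in null virus vehicle and 28.7, 15.6 and 23.1 in null virus compound. By the same probe set it read 107.8, 53.1, 55.7 and 67.9 in PPARγ virus vehicle and 137.1, 79.9, 109.5 and 87.8 in PPARγ virus compound. By the _a_at probe set it read 39.8, 2.5 and 14.7, then 37.9, 1.5 and 17.0 with the null virus, and 190.4, 41.6, 44.8 and 49.3, then 269.4, 82.0, 154.9 and 91.0 with the PPARγ virus. Both Fga probe sets were lowest in null virus arrays and highest in PPARγ virus replicate 1. By the second probe set, null virus vehicle replicate 1 (39.8) nearly met PPARγ virus vehicle replicate 2 (41.6).

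**Figure D1:**
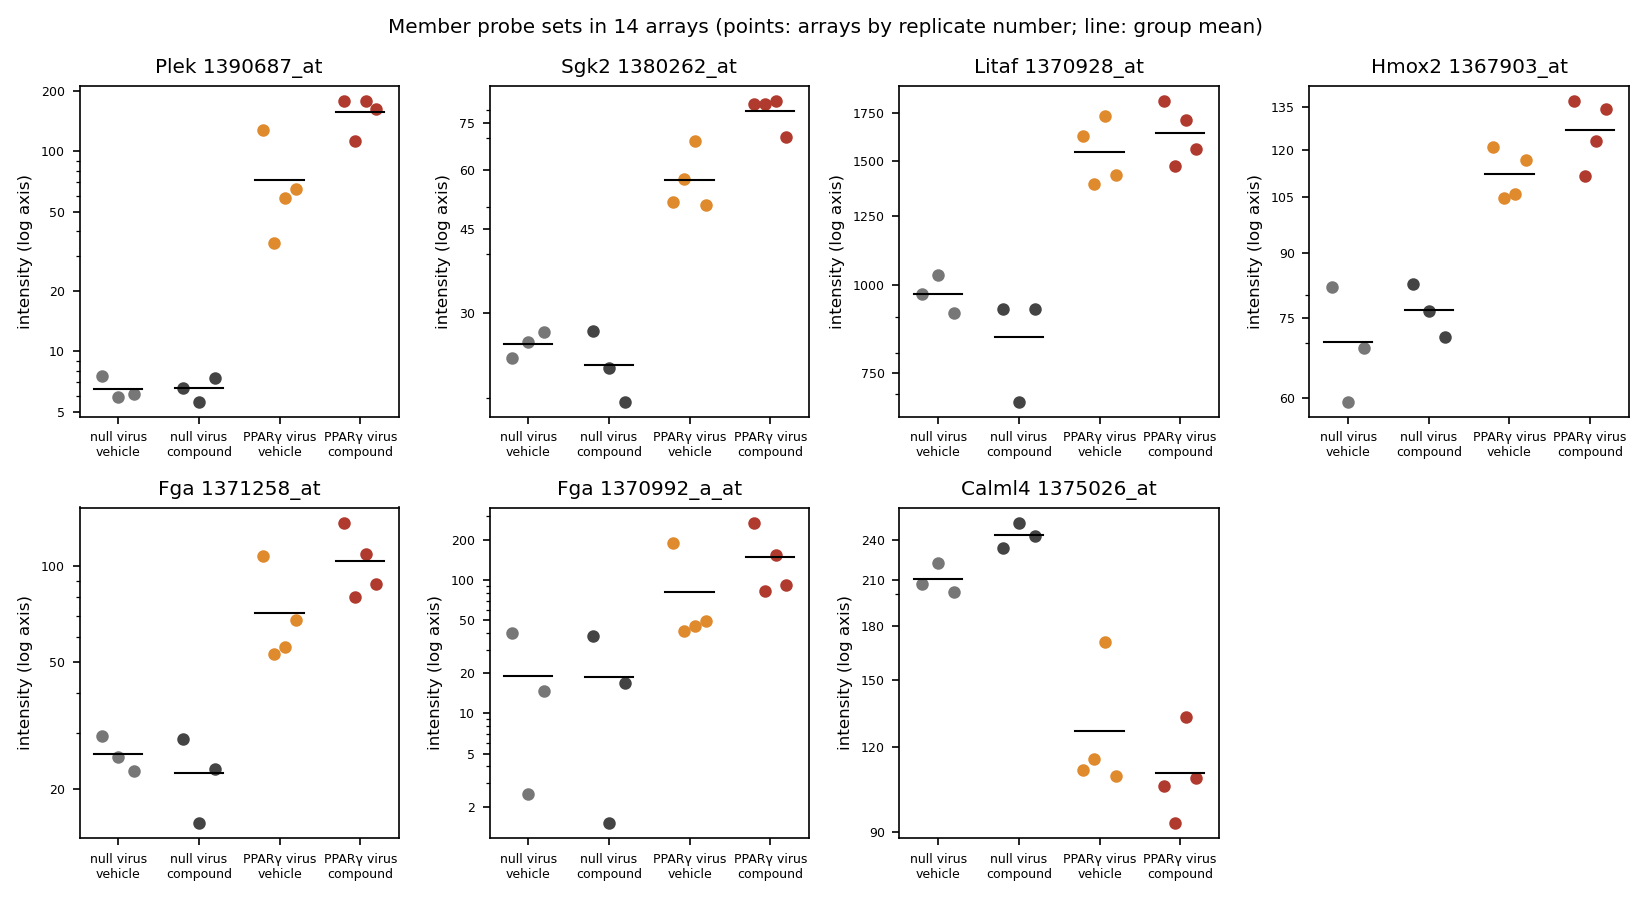
Intensity (log axis) of the 7 probe sets in each of the 14 arrays, by group; points are arrays in order of replicate number and lines are group means. Plek lay between 5.6 and 7.5 in the null virus arrays and between 34.7 and 178.8 in the PPARγ virus arrays, and Calml4 was lower in every PPARγ virus array.

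In vehicle, the contrast that chose the genes, the log2 change with the PPARγ virus was 2.65 ± 0.31 SE for Plek and 1.01 ± 0.16 for Sgk2. It was 0.66 ± 0.12 for Litaf, 0.65 ± 0.13 for Hmox2, 1.27 ± 0.25 and 1.94 ± 0.71 for the Fga probe sets, and -0.74 ± 0.15 for Calml4. Changes are on the log2(intensity + 4.6) scale, which understates them where intensity is low, as for Plek and Fga with the null virus. For background, limma called 0.0397% of all tested probe sets in this contrast. Groups did not overlap, upward, in 2.45% of tested probe sets and, downward, in 2.17%; nothing is read from these shares, since the contrast chose the genes.

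The virus contrast in compound compares other arrays and asked whether the genes differed between viruses there too. It is not a separate experiment: the spread was estimated over all 14 arrays for both contrasts, so the vehicle arrays also enter its p-values. The adjusted p with only the compound groups fitted is therefore given second. Plek, Sgk2 and both Fga probe sets passed the filter on low intensity only through PPARγ virus arrays, so the filter itself selected for a difference in them, and their p-values are given as values. For members under the limit of 39.3 in every null virus compound array, the fold is a lower bound, the geometric mean with the PPARγ virus over that limit. Plek stood at 6.53 ± 0.902 (SD, n = 3) with the null virus and at 158 ± 31.4 (SD, n = 4) with the PPARγ virus, and was at least 3.96-fold higher there (limma adjusted p = 1.90e-05, and 3.08e-05 with the compound groups alone). The fitted log2 change of 3.85 ± 0.31 SE is set in part by the pseudocount, being 2.93 with a pseudocount of 16 and 4.39 with a pseudocount of 1. Sgk2 went from 23.4 ± 4.01 (SD, n = 3) to 79.6 ± 6.34 (SD, n = 4), at least 2.02-fold higher (fitted log2 change 1.59 ± 0.16, adjusted p = 7.89e-05, and 0.00389 alone). Fga, by the _at probe set, went from 22.5 ± 6.57 (SD, n = 3) to 104 ± 25.6 (SD, n = 4), at least 2.58-fold higher (2.00 ± 0.25, adjusted p = 0.00110, and 0.00733 alone). With no filter the adjusted p was 5.11e-05 for Plek, 1.72e-04 for Sgk2 and 0.00219 for this probe set. Litaf went from 844 ± 140 (SD, n = 3) to 1640 ± 156 (SD, n = 4), a 1.95-fold rise (0.96 ± 0.12, adjusted p = 0.00119, and 0.0172 alone). Hmox2 went from 76.8 ± 5.70 (SD, n = 3) to 127 ± 11.8 (SD, n = 4), a 1.61-fold rise (0.69 ± 0.13, adjusted p = 0.0201) that did not pass with the compound groups alone (0.0749). Calml4 went from 244 ± 10.3 (SD, n = 3) to 110 ± 16.7 (SD, n = 4) and so fell by 1.13 on the log2 scale (SE 0.15, adjusted p = 0.00235, and 0.0100 alone). It ranked 1 by p among all falling probe sets, and Plek ranked 2 among rising ones, behind Pparg.

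By the _a_at probe set, Fga stood at 18.8 ± 18.3 (SD, n = 3) and 149 ± 86.4 (SD, n = 4) and did not pass (2.96 ± 0.71, adjusted p = 0.0915). With virus and replicate number together as a random replicate block it passed (adjusted p = 0.0248). It also passed with all 16 columns (0.0485), which enter 1 array in both null virus groups, but not with that array kept once, as vehicle (0.0713) or as compound (0.0618). Litaf, Hmox2 and Calml4 were the members above the limit in all 14 arrays, and of these 2 rose and 1 fell, where limma called 0.635% of all tested probe sets upward and 0.0695% downward. Their groups did not overlap, as was so in 4.56% of all probe sets upward and 5.26% downward. For each single probe set the exact two-sided permutation p was 0.0571, the smallest that 3 against 4 arrays allow. The median log2 change over all tested probe sets was -0.03.

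The Hmox2 call ended without null virus compound replicate 3 (adjusted p = 0.0852) or 4 (0.125), and without PPARγ virus compound replicate 1 (0.0715), 3 (0.0509) or 4 (0.0699). The arrays were other arrays but perhaps not other islets: under either virus, like-numbered arrays of both treatments deviated together from their group means (r = 0.45 to 0.70 across probe sets, 7 pairs).

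Every one of the 7 probe sets had a virus effect of larger absolute size in compound than in vehicle. The values ran from 0.69 against 0.65 for Hmox2 to 3.85 against 2.65 for Plek, and 2 of the 7 probe sets are for Fga. The difference in size was not tested, because the vehicle contrast chose the genes. How many of all tested probe sets had the larger effect in compound was not counted. Over all of them, limma called 71 in compound and 4 in vehicle, and gave an unadjusted p under 0.05 to 926 and 446. The larger effect is therefore not read as particular to the members. Among 12 PPARγ target and reference genes, several had both values near those of a member, as seen after the values were known. Dgat2, which encodes an enzyme of triglyceride synthesis, stood at 0.96 in vehicle and 1.59 in compound, beside 1.01 and 1.59 for Sgk2. Ehhadh, a gene of peroxisomal fatty acid oxidation, stood at 1.15 and 2.08, beside 1.27 and 2.00 for the Fga _at probe set. Plin2, the lipid droplet coat gene, stood at 0.93 and 1.38, and Gpd1 (glycerol-3-phosphate dehydrogenase) at 1.97 and 2.82. Fabp4, a fatty acid carrier and classical PPARγ target, stood at 1.28 ± 0.39 and 4.10 ± 0.39, and Cd36, the fatty acid transporter, at 0.45 ± 0.43 and 2.36 ± 0.43. Of these 12, with Pparg among them, limma called 2 rises in vehicle and 11 in compound, with medians of 0.94 and 1.97. Both counts and both medians take in Pparg, whose rise is given by the virus that encodes it. The other rise in vehicle was Gpd1 (limma adjusted p = 0.00268).

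**Figure D2:**
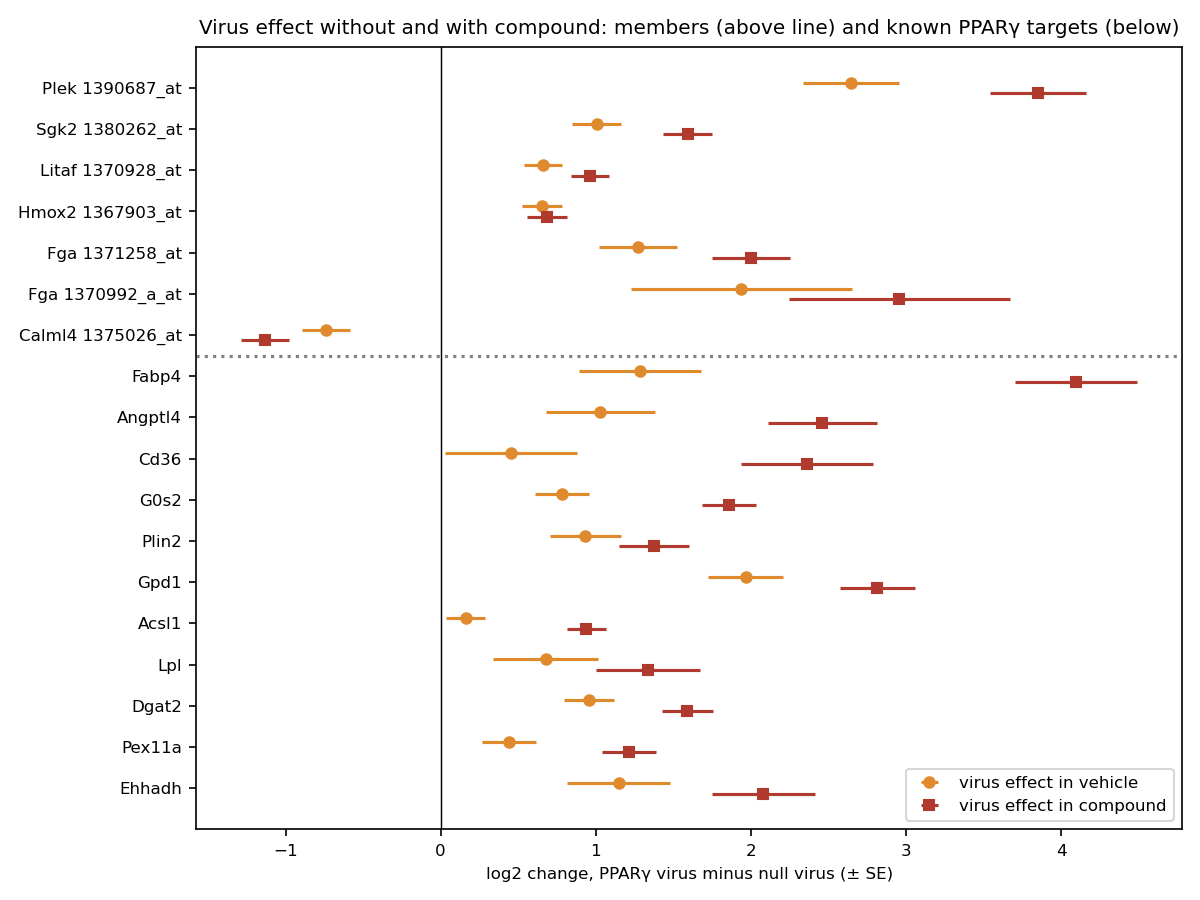
Log2 change (± SE) of PPARγ virus minus null virus in vehicle (circles) and in compound (squares), for the 7 member probe sets above the dotted line and 11 PPARγ target genes below it. For Hmox2 the values were 0.65 and 0.69, while for Fabp4 they were 1.28 and 4.10.

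The compound contrasts share their vehicle arrays with the contrast that chose the genes, so members are given by value only. Under the null virus, Plek stood at 0.00 ± 0.33 SE on the log2 scale (compound minus vehicle), Sgk2 at -0.13 ± 0.17 and Litaf at -0.21 ± 0.13. Hmox2 stood at 0.13 ± 0.14, the Fga probe sets at -0.19 ± 0.27 and -0.04 ± 0.76, and Calml4 at 0.21 ± 0.17. These errors come from the fit without pairs. The Calml4 pairs lay close together, at 0.17, 0.19 and 0.27. In pairs of the same number, Hmox2 and Calml4 were higher with compound in 3 of 3 pairs and each of the other probe sets in 1 of 3.

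Under the PPARγ virus, Plek stood at 1.21 ± 0.29 and was the higher in compound in 4 of 4 pairs, by 0.46 to 1.57. Sgk2 stood at 0.46 ± 0.15 and was higher in 4 of 4 pairs, by 0.26 to 0.64. Fga stood at 0.54 ± 0.23 and 0.98 ± 0.66 and was higher in 4 of 4 pairs by each probe set. Hmox2 (0.17 ± 0.12) was higher in 4 of 4 pairs as well, by 0.09 to 0.21, and Litaf (0.09 ± 0.11) in 3 of 4. Calml4 (-0.18 ± 0.14) was lower in 4 of 4. In absolute size, Plek had the largest value and Litaf the smallest. For background, limma called 0.0595% of tested probe sets in this contrast, or 6, and 0% under the null virus, where 95 had an unadjusted p under 0.05. With the replicate block within each virus, which pairs these arrays, the counts were 40 and 0 (42 and 0 with the block as a random term). The ratio of 3 prime to 5 prime signal of beta-actin, a measure of RNA integrity, was 7.58 to 13.4 in PPARγ virus vehicle and 10.5 to 14.9 in PPARγ virus compound, and with the null virus 7.83 to 11.7 and 10.01 to 14.5. That of Gapdh was 8.36 to 12.6 and 8.39 to 11.04 with the PPARγ virus, and 9.78 to 10.5 and 9.05 to 18.9 with the null virus. The part of RNA integrity in these values was not tested.

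**Figure D3:**
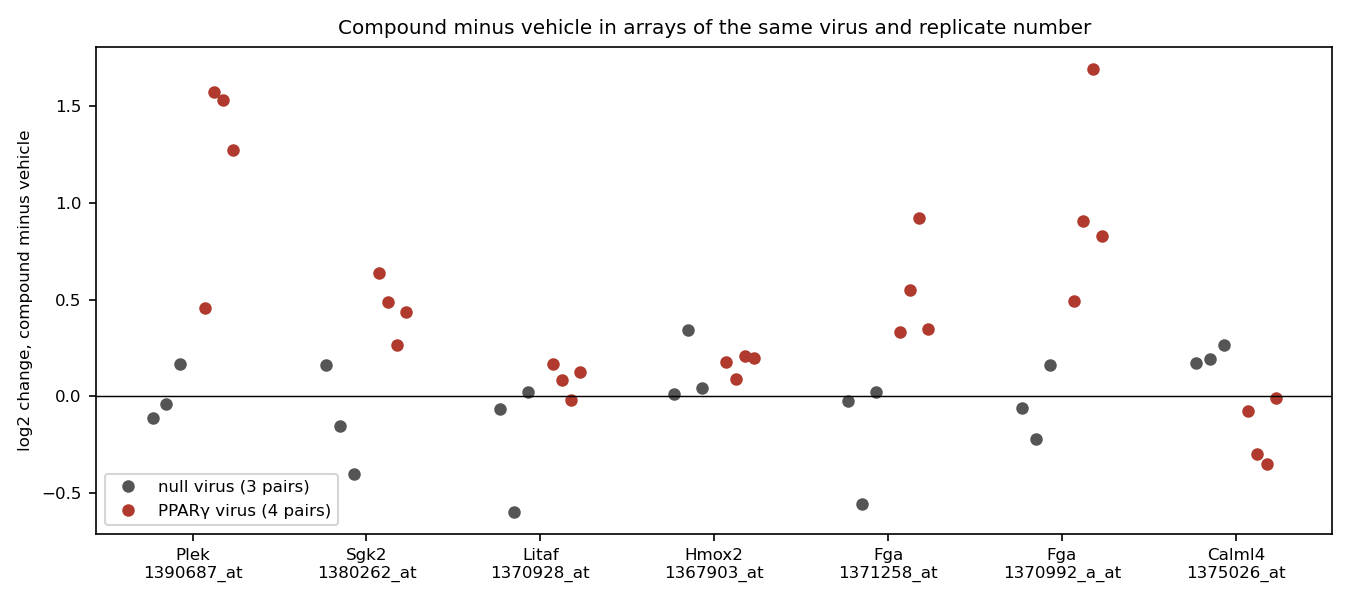
Log2 change from vehicle to compound in each pair of arrays with the same virus and replicate number, 3 pairs for the null virus and 4 for the PPARγ virus, by probe set. Plek was higher in 4 of 4 PPARγ virus pairs and in 1 of 3 null virus pairs.

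The members differed in how they varied between arrays of a group. After each group mean was taken away, Plek and the Fga _at probe set deviated together (r = 0.80 over 14 arrays), as did both Fga probe sets (r = 0.85). Plek and Sgk2 did not (r = -0.31), nor did Plek and Calml4 (r = 0.01). Arrays of a number share whatever their islets shared, so these are descriptions. Glucagon deviated with Plek (r = 0.71), Litaf (r = 0.59) and Calml4 (r = 0.59), and less with Sgk2 (r = 0.13). With PPARγ virus replicates 2 and 4, the arrays of low Gcg, left out together, the virus effect in compound was 4.04 for Plek (adjusted p = 1.16e-04) and -1.02 for Calml4 (adjusted p = 0.0240). With replicates 1 and 3 left out together, it was 3.66 for Plek (adjusted p = 2.46e-04) and -1.25 for Calml4 (adjusted p = 0.00106). Hmox2 passed in neither (0.73, adjusted p = 0.0638, and 0.65, adjusted p = 0.135). Both fits were added after the data were seen. The p-values of Plek are again values only, since Plek passed the filter only through PPARγ virus arrays.

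The other chains of fibrinogen were set beside Fga. Fgb, which encodes the beta chain, read 1392 to 2636 in null virus vehicle, 1068 to 3104 in null virus compound, 1656 to 3837 in PPARγ virus vehicle and 1903 to 3808 in PPARγ virus compound. Fgg, the gamma chain gene, read 835 to 1510, 589 to 1696, 967 to 1950 and 992 to 1936 in the same order. Replicate 1 was the highest in every group for both. Deviations of the Fga _a_at probe set from its group means went with those of Fgg (r = 0.97) and Fgb (r = 0.85). The virus effect in compound was 0.72 ± 0.37 for Fgb (adjusted p = 0.612) and 0.31 ± 0.34 for Fgg (adjusted p = 0.886), neither of which passed. Whether Fga differed from them in its response to the virus was not tested.

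**Figure D4:**
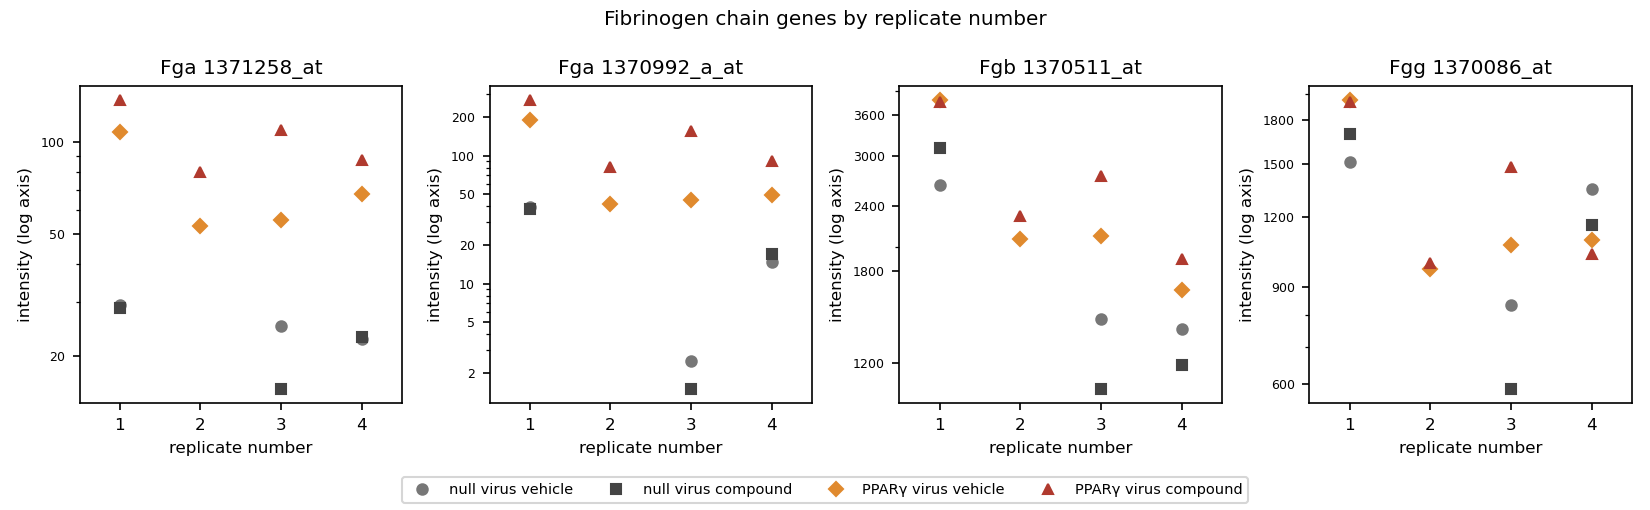
Intensity (log axis) of both Fga probe sets, Fgb and Fgg against replicate number, with a symbol for each group. For Fgb and Fgg replicate 1 was highest in all 4 groups, and for Fga the PPARγ virus arrays lay above the null virus arrays of the same number.

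The nearest relatives of the other members did not pass. Sgk1 stood at 0.33 ± 0.17 in the virus contrast in compound (adjusted p = 0.623) and Sgk3 at 0.09 ± 0.23 (adjusted p = 0.955). Hmox1, the inducible haem oxygenase, stood at 0.02 ± 0.21 (adjusted p = 0.988). Calm2, a calmodulin gene, stood at -0.18 ± 0.14 (adjusted p = 0.814), and Cdip1, a relative of Litaf, at -0.13 ± 0.16 (adjusted p = 0.914) and, by its other tested probe set, 0.01 ± 0.24. A probe set for the Hmox2 pseudogene Hmox2-ps1 read under the limit in all groups (13.7 to 18.3 on average), and cross-hybridisation between near-identical copies was not tested.

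Other genes of each pathway were counted from lists, with the members left out. In the virus contrast in compound, 1 of 19 SGK and AKT pathway genes rose: Foxo3, the forkhead factor that these kinases phosphorylate (0.56 ± 0.11, adjusted p = 0.0222). It read 285 to 347 in null virus compound and 429 to 538 in PPARγ virus compound, but 339 to 365 in PPARγ virus vehicle, where its virus effect was 0.07 ± 0.11 (adjusted p = 1.00). Of 16 fibrinogen and acute phase genes, 1 rose: Cp, which encodes the copper carrier ceruloplasmin (1.06 ± 0.18, adjusted p = 0.0101). It read 138 to 217 in null virus compound and 314 to 461 in PPARγ virus compound, and stood at 0.80 ± 0.18 in vehicle (adjusted p = 0.227). Among pleckstrin and protein kinase C genes 0 of 14 passed, among endosome and lysosome genes 0 of 19, among haem and iron genes 0 of 14, and among calmodulin family genes 0 of 15. In vehicle, and in either compound contrast, 0 genes of these 6 lists passed. The lists' median log2 changes in the virus contrast in compound ran from -0.18 (calmodulin family) to 0.29 (fibrinogen and acute phase), beside -0.03 for all tested probe sets.

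Markers of cells in which members are usually abundant were set beside them. Of 25 leukocyte markers on the array, 14 were tested and 0 passed in any of the 4 contrasts, with a median of -0.02 in the virus contrast in compound. Their summed intensity was 1554 to 2188 in null virus vehicle, 1410 to 2076 in null virus compound, 1626 to 2324 in PPARγ virus vehicle and 1532 to 2104 in PPARγ virus compound. These ranges overlapped between all 4 groups. Ptprc, which encodes the leukocyte antigen CD45, read 12.2 to 29.2 in all arrays, under the limit. Of 8 platelet markers, 2 were tested and 0 passed, and 5 were under the limit in all arrays. Of 15 hepatocyte markers, the cells that make fibrinogen, 8 were tested and 0 passed. Their summed intensity was 1089 to 1174 in null virus compound and 1051 to 1822 in PPARγ virus compound. Of 6 tested duct markers, 1 rose in the virus contrast in compound, the keratin gene Krt19 (1.36 ± 0.27, adjusted p = 0.0284). The median of the 6 was 0.07, with 3 above 0. Summed intensity of the 7 duct markers on the array was 5988 to 6775 in null virus compound. In PPARγ virus compound it was 6168 to 6962, which overlapped. The part of these cells in the members' values was not tested, and fewer cells of a type and less RNA per cell cannot be told apart in whole islets. Acinar, endothelial and stromal, beta cell, and alpha, delta and PP cell markers had 0 of 4, 0 of 8, 0 of 6 and 0 of 5 tested genes passing. The last list, which holds Gcg, had a median of -1.16 in the virus contrast in compound.

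Likeness over the 14 arrays takes in both the difference between viruses and the spread within groups. The gene most like Plek was Gpd1 (Pearson r = 0.99), followed by the Fga _at probe set (0.98) and Tmem140 (0.97). Gpd1 was also the most like Sgk2 (0.95) and Hmox2 (0.95), and the next most like Litaf (0.93) after Fga (0.95). For the Fga _a_at probe set, which spread most within groups, Pdzrn3 came before Whamm and the other Fga probe set (0.94, 0.93 and 0.92). Calml4 was most like the histone gene H2az1 (0.93), then Amigo2 and Mix23 (0.93 each).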

How the data were processed

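RNA of rat pancreatic islets had been hybridised to an oligonucleotide expression array. The deposited values are intensity, 1 per probe set, linear and without detection calls; their software is not given in the sources used here. Each deposited intensity column had a mean of 150.0 once its top and bottom 2% were dropped, a scaling by the authors, so no further normalization was applied. Of 16 columns, the 2 with identical values were left out.

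Values were taken as log2(intensity + 4.6), where 4.6 is the 10th percentile of positive values in the 14 arrays. A probe set was tested if above 39.3, the 40th percentile, in at least 4 arrays, and the 57 controls were dropped. Of the 10078 tested, 8488 named 1 gene, 235 several and 1355 none, by the platform's annotation (symbols updated by gene identifier; 12754 of 12789 matched). The model held 4 group means and was run in limma 3.58.1 (R 4.3.3; eBayes, trend on), with Benjamini-Hochberg adjustment over all tested probe sets; the script was tested on simulated data. The design had no replicate block. Pairing by number was judged from deviations around group means: every pair within a virus correlated (r = 0.45 to 0.70), but not every pair across viruses (-0.14 to 0.43).

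Genes named are the members, Pparg, near relatives, genes of the pathway lists that passed, and some of the 3 genes most like each member. Markers of other cells and 6 PPARγ reference genes are named as context. Members, lists and rules were chosen with earlier results of these data known. In list counts the probe set with the highest mean stands for a gene. Promoters came from RefSeq (GRCr8); protein sequences were not used here. Python 3.11.15 and matplotlib 3.10.9 made the figures. Alternatives changed the pseudocount, filter, normalization, trend, block, samples in the fit and arrays left out.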

Additional observations from a re-analysis of the deposited data

Results flagged for a closer look

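In 14 groups of 4 arrays (7 probe sets in both PPARγ virus groups), 3 arrays stood far from the other three by Dixon's test on the log2 scale, where chance gives about 1 in 20 groups. Sgk2 read 70.1 in PPARγ virus compound replicate 4, against 82.3 to 83.5 in the others. Fga by the _a_at probe set read 190.4 in PPARγ virus vehicle replicate 1, against 41.6 to 49.3. Calml4 read 170.3 in PPARγ virus vehicle replicate 3, against 108.9 to 115.1.

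For Calml4 the compound effect had opposite signs under the viruses. It was higher with compound in 3 of 3 null virus pairs (by 0.17 to 0.27) and lower in 4 of 4 PPARγ virus pairs (log2 change -0.35 to -0.01). The difference of the compound effects was -0.39 ± 0.22 SE on the log2 scale and was not tested, since the vehicle arrays chose the gene.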

How the results depend on the processing

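No direction of a member reversed under any alternative run, and leaving out 1 array in turn (14 fits) kept the calls of Plek (3.79 to 4.00), Sgk2 (1.49 to 1.70), Litaf (0.82 to 1.04), the Fga _at probe set (1.80 to 2.16) and Calml4 (-1.22 to -1.06) in the virus contrast in compound. Hmox2 (0.64 to 0.74) lost its call in 5 of the 14, and the Fga _a_at probe set (2.19 to 3.59) passed in none. All 5 were fits without a compound array, and without null virus compound replicate 1 Hmox2 only just passed (limma adjusted p = 0.0495). Leaving out a vehicle array cannot move the estimates of this contrast and changes only the spread, so those fits say less about any member. The number of member probe sets called was 5 to 6, where limma called 0.705% of all tested probe sets in the main fit. That count takes in Plek, Sgk2 and the Fga _at probe set, in which the filter itself selected for a difference. Nothing is therefore read from it. Hmox2 also lost its call fitted on the groups compared alone (0.69, adjusted p = 0.0749) and without PPARγ virus replicates 2 and 4 (0.73) or 1 and 3 (0.65) together, alternatives added after the data were seen. The Fga _a_at probe set gained one with the replicate block over all groups (3.17, adjusted p = 8.09e-04), with the random replicate block within each virus (2.96) and with all 16 columns (2.76), which hold 1 array in both null virus groups. The exact permutation test, whose smallest p is 0.0571, could pass no probe set: Plek 3.85, Sgk2 1.59, Litaf 0.96, Hmox2 0.69, Fga 2.00 and Calml4 -1.13. Under the stricter filter Sgk2 and both Fga probe sets were not tested.

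Probe sets called in all numbered 71 for the virus contrast in compound, 211 with the replicate block over all groups, 43 on the groups alone, and 31 to 75 leaving out 1 array. The fewest were 31 without null virus compound replicate 3, 39 without replicate 4 and 44 without PPARγ virus compound replicate 1. For the virus contrast in vehicle they numbered 4, against 34 with that block, 1 on the groups alone, and 3 to 7 leaving out 1 array (7 without PPARγ virus vehicle replicate 3 or compound replicate 2). For compound under the PPARγ virus they numbered 6, against 14 with the replicate block over all groups, 40 (fixed) and 42 (random) with the block within each virus, 2 on the groups alone, and 2 to 7 leaving out 1 array (2 without vehicle replicate 3 or compound replicate 4, 3 without compound replicate 2). Without PPARγ virus replicates 2 and 4 together the counts were 91, 15 and 2 in that order, and without 1 and 3 together 71, 12 and 5. Under the null virus the count was 0 in every alternative run. Across viruses, like-numbered arrays correlated for replicate 1 (r = 0.30 to 0.43) but not for every number, and the labels do not say what a number marks. The causes were not tested.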

Other observations

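The array deposited under both null virus labels of replicate 2, and used in no comparison, lay on the null virus side for all members. It read 6.6 for Plek, 28.5 for Sgk2, 1015 for Litaf, 84.5 for Hmox2, 29.9 and 25.9 for the Fga probe sets and 195.7 for Calml4. Sgk2, Hmox2, the Fga _at probe set and Calml4 lay just outside the range of the other 6 null virus arrays.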
